A study of Mus musculus with 6 samples.

Results

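The cells described here are 2345 barcodes of a mouse aorta single-cell data set that passed a rule written to pick out pericytes of the aortic wall. They are 4.34% (95% interval 4.17 to 4.52) of the 53983 barcodes that had 500 or more genes detected and no more than 20% of UMIs (unique molecular identifiers, 1 per captured transcript) from mitochondrial genes. The matrix holds 60871 barcodes in all. A barcode was taken if the UMIs of Kcnj8, Abcc9, Higd1b, Vtn and Cspg4 summed to at least 5 and Notch3 had at least 1 UMI. It also had to have 0 UMIs of the fibroblast gene Pdgfra, of the endothelial genes Pecam1 and Cdh5 and of the leukocyte gene Ptprc. The sum alone left 12955 barcodes, the Notch3 condition 4378, the Pdgfra condition 3698 and the last condition 2345. The cells were thus chosen on measured UMIs, so the levels of the rule's genes are a description and support nothing.

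The study addressed what smooth muscle cells of the vessel do in disease of the aorta and used droplet single-cell RNA sequencing of aortic tissue. Its samples were 3 of the genotype labelled Best3FL/FL (floxed Best3) and 3 labelled Best3SMKO, read here as Best3 deleted in smooth muscle. The sources used here give neither the Cre driver nor the age, the sex or any treatment of the mice. All 6 were deposited as 1 matrix whose 6 barcode suffixes match no sample label, so no cell could be tied to a genotype. The libraries are called 1 to 6 after the suffix, no genotype comparison was made, and no p-value is given.

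Pericytes are mural cells that sit within the basement membrane of capillaries and small vessels, in direct contact with the endothelium. They share much of their gene expression with smooth muscle, from which they grade without a sharp border. Endothelial PDGF-B recruits them through the receptor Pdgfrb, and Notch3, a receptor for endothelial Jagged ligands, maintains mural cells. In the wall of the aorta such cells would belong mainly to the small vessels that feed the adventitia. The given pericyte markers were Kcnj8 and Abcc9, which encode the pore and the sulfonylurea receptor of a vascular ATP-sensitive potassium channel, Vtn (vitronectin, a secreted adhesion protein), Higd1b (a mitochondrial protein of the hypoxia-inducible gene domain family) and Notch3. Cspg4, in the sum but not among the given markers, encodes the proteoglycan NG2, which smooth muscle cells carry too.

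The data went against the name of these cells. Of the 2345 cells, 2287 (97.5%) held at least 5 UMIs of Myh11, the smooth muscle myosin heavy chain. Smooth muscle markers (Acta2, Tagln, Myh11, Cnn1, Smtn, Lmod1, Myocd) summed to 45196 CPM (counts per 1000000, the UMIs of a gene over all UMIs of the class), with libraries between 43463 and 47723 CPM. In cells gated as elastic-type smooth muscle (at least 5 Myh11 UMIs, no Pln, not passing the sum) the same markers summed to 42422 CPM. In Pln-positive smooth muscle (the same gate with at least 2 Pln UMIs) they summed to 41415 CPM. The 5 given pericyte markers summed to 524 CPM in the selected cells, 215 CPM in elastic-type and 688 CPM in Pln-positive smooth muscle. Notch3 made up 625 CPM of the last value. The rule uses all 5 markers and both comparator gates keep the sum low, so these 3 values are a description and bear on no name. Because of their Myh11 and other smooth muscle markers, the cells are called the selected cells below and are given no cell type name.

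Markers of other cell types were low in the selected cells apart from single genes. Fibroblast markers summed to 939 CPM against 28725 CPM in gated fibroblasts, and endothelial markers to 662 CPM against 19104 CPM in gated endothelial cells, with Pdgfra, Pecam1 and Cdh5 at 0 by the rule. Leukocyte markers summed to 131 CPM, and markers of adipocytes, mesothelium and cycling cells to 1.93, 2.07 and 5.83 CPM. Schwann cell markers summed to 487 CPM, of which Ncam1, a cell adhesion gene that elastic-type smooth muscle also held at 429.9 CPM, made up 451 CPM. Striated muscle markers summed to 93.2 CPM, with libraries between 30.7 and 219 CPM.

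Library totals ran from 51813179 to 96144873 UMIs over 7475 to 16269 barcodes, and the selected cells numbered 303, 423, 384, 322, 387 and 526 in libraries 1 to 6. Their share of the filtered barcodes ran from 2.47% (2.23 to 2.73) in library 5 to 8.22% (7.56 to 8.92) in library 6. The selected cells were deep, with a median of 12268 UMIs and 3753 genes against 6305 UMIs and 2550 genes over all filtered barcodes. Scrublet called 45 of them (1.92%) doublets, against 5.95% of filtered barcodes. Library 5 held 24 of the 45 (6.20% of its selected cells), and without it 21 of 1958 (1.07%) were called. Of the selected cells 36 had a barcode sequence that also occurs in another library. Intervals in the text are exact and cover counting error only.

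The gene that carried most of the rule was Cspg4, which gave 58.3% of the summed UMIs. Abcc9 gave 28.1%, Kcnj8 8.26%, Higd1b 2.83% and Vtn 2.58%. Cspg4 alone reached 5 UMIs in 1360 of the selected cells, whereas the other 4 genes together reached 5 in 730. In the genome build GRCm38 (GENCODE M21) Cspg4 lies at chr9:56865033-56899870 on the plus strand, Vtn at chr11:78499091-78502324 and Higd1b at chr11:102835849-102838040, both on the plus strand. Notch3 lies at chr17:32120820-32166852 on the minus strand. Kcnj8 (chr6:142564837-142571614) and Abcc9 (chr6:142587862-142702315) are neighbours on the minus strand with 16247 bases between them.

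**Figure D1:**
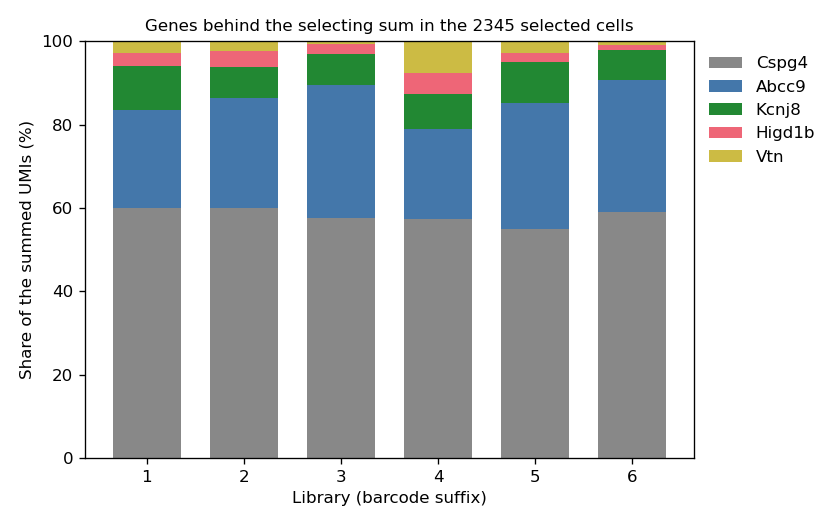
Share of the summed UMIs of Kcnj8, Abcc9, Higd1b, Vtn and Cspg4 (y axis, percent) that each gene gave in the selected cells of libraries 1 to 6 (x axis). Cspg4 is the largest part of each bar, between 55.0% in library 5 and 60.1% in library 2, while Vtn runs from 0.647% in library 3 to 7.67% in library 4.

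Few cells held the more restricted markers. In gated fibroblasts Abcc9 (151 CPM) and Kcnj8 (49.8 CPM) were nearly as abundant as in the selected cells (209 and 61.6 CPM), whereas Higd1b (0.571 CPM) and Vtn (4.57 CPM) were not. Vtn was detected in 140 cells (5.97%), Higd1b in 257 (10.96%), Kcnj8 in 975 (41.6%), Abcc9 in 1876 (80.0%) and Cspg4 in 2182 (93.0%). Among leukocytes, taken as a class that should lack these genes, the shares were 0.464%, 0.295%, 1.81%, 6.79% and 7.88%, at a median depth of 5605.5 UMIs. The fibroblast and leukocyte gates keep the sum of these genes under 5, while the rule asks for at least 5. Selection thus sets part of each of these differences, which are a description. Higd1b stood at 22.8, 29.7, 16.1, 39.8, 17.2 and 9.62 CPM in the selected cells of libraries 1 to 6, and Vtn at 20.8, 17.7, 4.25, 62.4, 21.3 and 6.32 CPM. Library 4 was highest for both genes, and libraries 3 and 6 were low for both. Kcnj8 lay between 48.6 CPM in library 3 and 75.8 CPM in library 1, and Abcc9 between 171 CPM in library 1 and 238 CPM in library 6. Notch3 lay between 124 CPM in library 3 and 359.7 CPM in library 4, and Cspg4 varied least of the 6 genes, between 377 and 467 CPM.

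Passing the rule moved with depth. Of cells with at least 5 Myh11 UMIs, 2.56% (1.89 to 3.37) of those under 4000 UMIs were selected, then 12.2%, 27.7% and 38.1% in steps of 4000 UMIs, and 52.0% (48.7 to 55.3) of those with 16000 UMIs or more. The share was higher at each deeper step in each of the 6 libraries. When each selected cell was thinned to 5000 UMIs, leaving out 116 shallower cells, 463 of 2229 (20.8%) still passed the sum and Notch3 conditions. The cells just inside the threshold, with a sum of 5, numbered 356 and held a median of 61 Myh11 UMIs and 10226.5 UMIs in all. The 367 cells just outside it, with a sum of 4, held a median of 49 Myh11 UMIs and 9237 UMIs in all, and Cspg4 gave 62.0% of their sum against 59.8% of the sum of those inside.

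**Figure D2:**
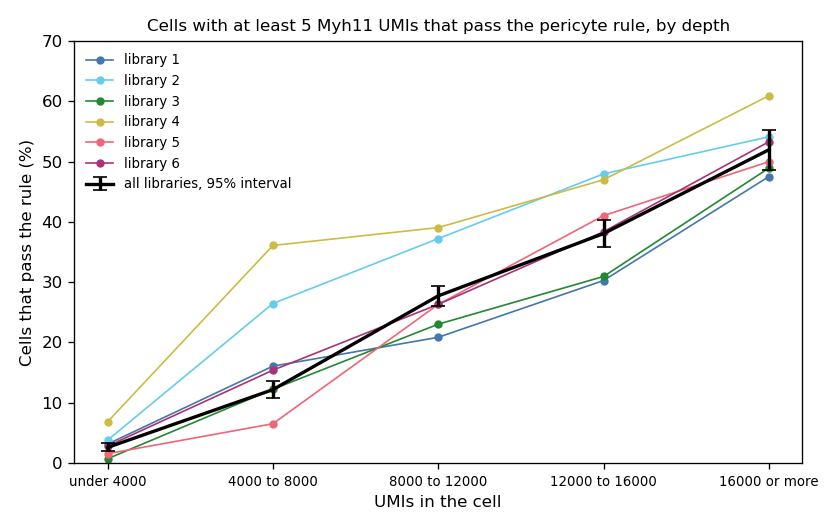
Percent of cells with at least 5 Myh11 UMIs that passed the pericyte rule (y axis) by the UMIs in the cell (x axis), for each library (thin lines) and all libraries together (black, with exact 95% intervals). The pooled share runs from 2.56% below 4000 UMIs to 52.0% at 16000 UMIs and above.

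Against elastic-type smooth muscle (4063 cells, median 4883 UMIs) the selected cells stood apart in few genes. A gene was called where it reached 20 CPM in either class, its ratio reached 4 after 2 CPM were added to each value, and the direction was the same in every library with at least 20 cells of each class. This rule of size is no test. It called 4 of 6377 genes higher (0.0627%) and 2 lower (0.0314%). The 4 were Higd1b, which the rule sums, Pln, which is 0 in the comparator by its gate, Pappa2 and Olfr558. Pappa2, a protease of insulin-like growth factor binding proteins, stood at 28.4 CPM (26.5 to 30.4) against 1.67 CPM and was detected in 2.35% of the selected cells, so few cells supplied it. Its libraries 1 to 6 held 27.7, 72.9, 2.30, 56.0, 15.5 and 9.05 CPM, highest in libraries 2 and 4. Olfr558, an odorant receptor gene known from vascular smooth muscle, stood at 33.2 against 5.51 CPM, again highest in libraries 2 and 4 (71.9 and 76.8 CPM). Both genes were higher still in Pln-positive smooth muscle, Olfr558 at 327 CPM and Pappa2 at 35.4 CPM. The rule, unlike the elastic-type gate, does not exclude cells with Pln. The part of such cells in the Pappa2 and Olfr558 calls was not tested. The 2 lower genes were Ighm (immunoglobulin heavy chain mu, 40.5 against 289 CPM) and Mbp (myelin basic protein, 6.99 against 34.0 CPM), which belong to B cells and glia. Leaving out library 2 left 2 higher genes, and leaving out libraries 3, 4, 5 and 6 in turn gave 0, 1, 5 and 1 lower genes.

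Pericyte genes outside the rule did not set the selected cells apart from elastic-type smooth muscle. Of 20 such genes, 14 reached 20 CPM in either class, none was called, and their median ratio was 1.21 against 1.007 over all genes tested. Rgs5, a brake on G protein signalling that is abundant in mural cells, stood at 3387 against 2077 CPM. Pdgfrb stood at 143 against 122 CPM and Mcam (CD146, an adhesion molecule of vascular cells) at 389 against 355 CPM. Ndufa4l2 and Cox4i2, hypoxia-linked paralogs of respiratory chain subunits, stood at 30.8 against 11.3 and 30.2 against 10.4 CPM. Of the 20 contractile genes, Acta2 stood at 19486 against 19293 CPM, Tagln at 14693 against 13486 CPM and Myh11 at 7069 against 5889 CPM, and none apart from Pln was called. The other lists gave no call in this comparison beyond the rule's Higd1b. They covered ion channels, Notch, PDGF, VEGF and angiopoietin signalling, vasoactive receptors, cyclic nucleotides, RGS proteins, both matrix lists, integrins, chemokines, transcription factors, Hox genes, TGF-beta and BMP signalling, coagulation and complement, and immediate early genes.

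Pln-positive smooth muscle (266 cells, median 8438.5 UMIs) differed more. Of 6698 genes tested, 40 were called higher in the selected cells (0.597%) and 78 lower (1.16%). Higher were Abcc9 at 209 against 24.8 CPM and Kcnj8 at 61.6 against 7.07 CPM, both rule genes that the comparator's gate keeps low. Outside the rule, Fst (follistatin, an activin binding protein) stood at 71.2 against 3.54 CPM, Colec11 (a collectin) at 30.9 against 0.884 CPM, Wnt16 at 40.9 against 2.21 CPM, Postn (periostin) at 584 against 142 CPM and Npr3 (the natriuretic peptide clearance receptor) at 22.6 against 3.09 CPM. Lower were 2 of the 14 pericyte genes that reached the floor. Ndufa4l2 stood at 30.8 against 193 CPM and Cox4i2 at 30.2 against 149 CPM. A group of 4 ion channel genes were lower by the same rule, among them Kcna5 (34.0 against 200.2 CPM) and Kcnj2 (1.59 against 23.4 CPM), as were the transcription factor genes Tbx2 (34.3 against 149 CPM) and Tbx3 (10.3 against 86.6 CPM). Adamts4, a protease of proteoglycans, stood at 27.0 against 239 CPM, Thbs1 (thrombospondin) at 178 against 724 CPM and Nrarp, a Notch target, at 9.06 against 71.2 CPM. Notch3 itself stood at 213 CPM in the selected cells and 625 CPM in Pln-positive smooth muscle, although the rule asks for it. No gene of 8377 (0%) was higher than in all 4 of elastic-type smooth muscle, Pln-positive smooth muscle, fibroblasts and endothelial cells.

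The genes whose levels over the 7 gated classes followed Higd1b most closely were Trarg1, Olfr558, Acan, Lrrc10b and Hrc (Pearson r between 0.969 and 0.953 on log2 CPM with 2 added, n = 7 classes that share libraries). Cox4i2 was the last of the 10 at 0.946. All 10 were highest in Pln-positive smooth muscle, as Higd1b was at 30.1 CPM against 21.1 CPM in the selected cells.

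The selected cells were mixed, and several genes changed mainly where 4 or 5 of the given markers had a UMI. Of the 2345 cells, 253 held Notch3 alone, 1127 held 2 of the 5 markers, 829 held 3, 81 held 4 and 55 held all 5. Myh11 stood at 7201, 7288, 7039, 5371 and 2852 CPM with 1 to 5 markers, and Acta2 at 18517, 20236, 19611, 13968 and 7549 CPM. Pdgfrb, not used by the rule, stood at 137, 119, 134, 374 and 807 CPM with 1 to 5 markers. Steap4 (a metalloreductase) stood at 3.34, 4.10, 8.54, 148 and 641 CPM, and Ndufa4l2 at 39.7, 18.6, 20.4, 110.1 and 523 CPM. Rgs5 did not follow the series, with 1616, 2974, 4370.1, 2941 and 3767 CPM. Cspg4 ran the other way, from 704 CPM with 1 marker to 103 CPM with 5. The rule favours this by construction, since cells with Notch3 alone had to reach the sum on Cspg4. Median depth was highest with 3 markers and lowest with 5, at 10783, 12420, 12870, 10799 and 6917 UMIs.

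**Figure D3:**
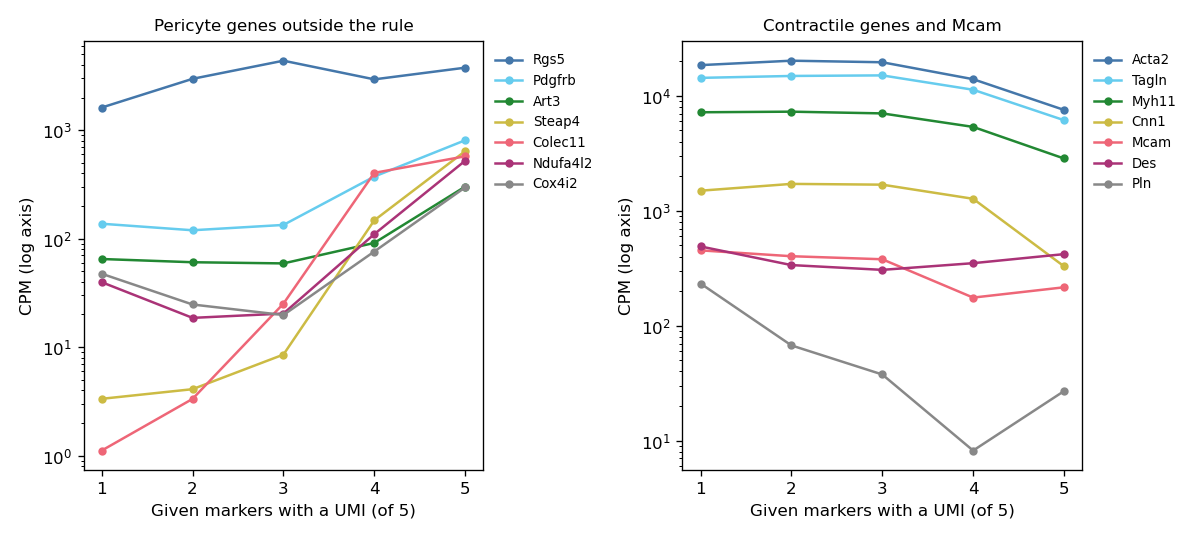
CPM (log axis) of pericyte genes that the rule did not use (left) and of contractile genes and Mcam (right) in the selected cells with 1 to 5 of the given markers detected (x axis). Steap4, Colec11, Ndufa4l2 and Cox4i2 are higher at 4 and 5 markers, where Acta2, Tagln, Myh11 and Cnn1 are lower, while Rgs5 stays between 1616 and 4370.1 CPM.

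The 136 cells with 4 or 5 given markers (5.80% of the selected cells) were set beside the 2209 with 1 to 3. This split was chosen after values had been seen, so it is a description. The 136 cells numbered 26, 26, 10, 33, 26 and 15 in libraries 1 to 6, a share that ran from 2.60% of the selected cells in library 3 to 10.2% in library 4. Their median depth was 8492 UMIs against 12408 UMIs. After thinning to 5000 UMIs, 66.4% of the cells deep enough still passed the sum and Notch3 conditions, against 18.4% with 1 to 3 markers. The split and this outcome use UMIs of the same genes, so the difference supports nothing. The rule genes held a median of 18.5 UMIs per cell against 10. Over all filtered barcodes 288 held 4 or 5 of the markers. The 152 outside the selection included 119 with Pecam1, Cdh5 or Ptprc UMIs and 44 with Pdgfra, 21 of them with both.

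The rule of size was applied with its minimum lowered from 20 to 10 cells, which each library met, so the direction was asked of every library. By it 256 of 7191 genes (3.56%) were higher with 4 or 5 markers and 73 (1.02%) lower. Of the 20 pericyte genes outside the rule, 16 reached 20 CPM and 6 were called, all higher: Pdgfrb, Ndufa4l2, Cox4i2, Anpep, Steap4 and Colec11. Their median ratio over the 16 was 2.38, against 1.06 over all genes tested. Pln-positive smooth muscle shared part of this. Against that class 244 of 7298 genes (3.34%) were higher in the 136 cells and 102 (1.4%) lower, and of the 16 pericyte genes only Steap4 and Colec11 were called. Cox4i2 stood at 147 CPM in the 136 cells and 149 CPM in Pln-positive smooth muscle, Ndufa4l2 at 243 and 193 CPM, Ednra at 130.02 and 91.5 CPM and Kcnk3 at 419 and 135 CPM.

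The promoters of genes high in these 136 cells are printed to show the sequence before their start sites. They are the given markers Kcnj8, Abcc9 and Vtn with Steap4 and Colec11, 2 pericyte genes outside the rule, all chosen after their values were seen and with an entry in the RefSeq promoter table (build GRCm38.p6). Each run covers the bases from 250 to 51 before the RefSeq start, 5' to 3' on the gene's strand, and holds no annotated exon of the gene. Capitals mark TGGGAA or its reverse complement TTCCCA, the core motif of RBPJ, the DNA-binding protein through which Notch receptors act.
Kcnj8, chr6:142571665-142571864, minus strand: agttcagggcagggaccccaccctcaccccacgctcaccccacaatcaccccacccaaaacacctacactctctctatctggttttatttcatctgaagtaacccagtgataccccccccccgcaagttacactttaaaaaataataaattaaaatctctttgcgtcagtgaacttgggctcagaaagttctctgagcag
Abcc9, chr6:142702325-142702524, minus strand: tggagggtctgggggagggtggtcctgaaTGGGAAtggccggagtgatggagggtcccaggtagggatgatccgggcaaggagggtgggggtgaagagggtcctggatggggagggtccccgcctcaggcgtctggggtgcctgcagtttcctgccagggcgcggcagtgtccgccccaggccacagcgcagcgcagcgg
Vtn, chr11:78498870-78499069, plus strand: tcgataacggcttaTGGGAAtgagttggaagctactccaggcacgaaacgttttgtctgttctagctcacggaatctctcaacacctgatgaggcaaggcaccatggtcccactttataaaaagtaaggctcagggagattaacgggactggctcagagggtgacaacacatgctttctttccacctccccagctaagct
Steap4, chr5:7960222-7960421, plus strand: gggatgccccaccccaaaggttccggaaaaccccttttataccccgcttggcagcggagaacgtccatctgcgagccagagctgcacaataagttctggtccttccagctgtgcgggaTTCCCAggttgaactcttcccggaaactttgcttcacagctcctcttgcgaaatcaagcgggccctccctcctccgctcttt
Colec11, chr12:28623381-28623580, minus strand: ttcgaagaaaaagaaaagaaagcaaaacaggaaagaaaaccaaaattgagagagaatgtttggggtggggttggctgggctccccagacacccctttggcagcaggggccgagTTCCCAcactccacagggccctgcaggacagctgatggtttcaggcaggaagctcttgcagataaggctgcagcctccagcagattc
The motif was found in 4 of these 5 stretches and in 17.9% of the same stretch of 32851 promoters. Kcnj8, Abcc9 and Vtn define the split, and all 5 genes were chosen with their values known. The 2 shares are therefore no measure of enrichment. A match of 6 letters is a description of the sequence, and no binding was measured.

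Steap4 stood at 241, 294, 352, 385, 251 and 326 CPM in the cells with 4 or 5 markers of libraries 1 to 6, against between 2.70 and 11.2 CPM with 1 to 3 markers. Colec11 stood at 532, 365, 329, 639, 292 and 526 CPM against between 2.34 and 26.6 CPM. The libraries of the 2 parts did not overlap for either gene, and pooled values were 307 CPM (277 to 339) against 5.78 CPM (4.92 to 6.73) for Steap4 and 459 CPM (422 to 498) against 11.7 CPM (10.5 to 13.1) for Colec11. Pdgfrb stood at 428, 561, 318, 636, 453 and 499 CPM against between 98.8 and 151 CPM, a pooled 514 against 127 CPM. Ndufa4l2 stood at a pooled 243 CPM (libraries 162 to 345) against 21.3 CPM (10.1 to 59.7), and Cox4i2 at 147 CPM (89.8 to 204) against 24.9 CPM (10.8 to 59.1). Anpep, an aminopeptidase, stood at 31.7 against 5.07 CPM. Rgs5 overlapped between the parts, at 2344 to 4974 CPM against 1776 to 5247 CPM, and Mcam was lower with 4 or 5 markers at 189 against 398 CPM without reaching the ratio of 4. Atp13a5, Slc6a20a and Zic1, known from brain pericytes, did not reach 20 CPM in either part.

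**Figure D4:**
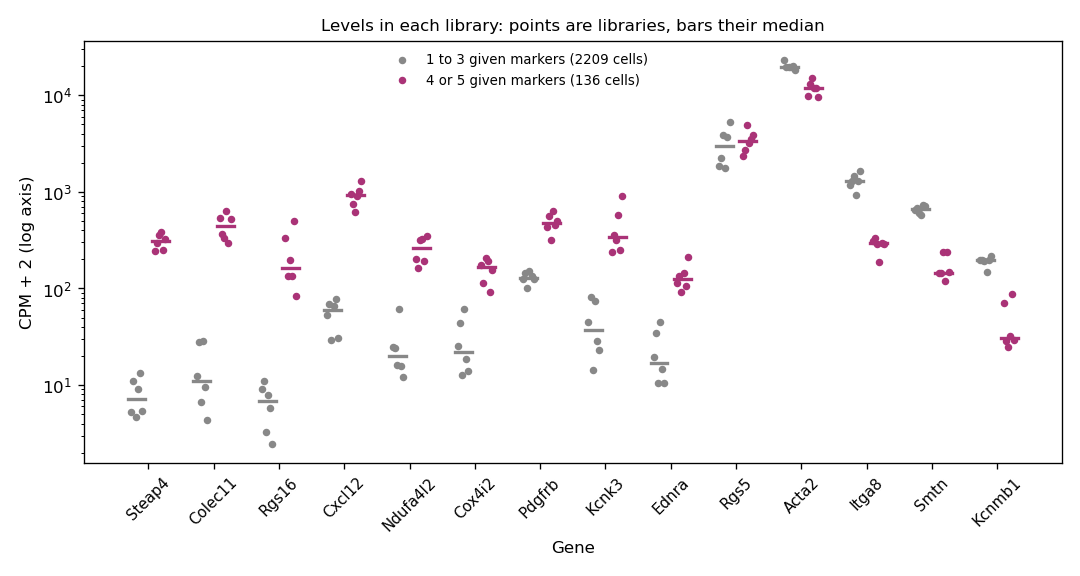
CPM with 2 added (log axis) of 14 genes in the selected cells with 1 to 3 (grey) and 4 or 5 (purple) given markers. Each point is 1 library and each bar the median of 6. The libraries of the 2 parts do not overlap for Steap4, Colec11 or Pdgfrb and overlap for Rgs5.

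Receptors and channels of vascular tone differed in both directions. Among 20 ion channel genes, 11 reached the floor. Kcnk3 (the acid-sensitive TASK-1 potassium channel) stood at 419 CPM (libraries 236 to 907) against 39.4 CPM (12.4 to 79.3), and Ano1 (a calcium-activated chloride channel) at 208 against 44.9 CPM. Kcnj8 was also called but counts toward the split. Kcnmb1 (the beta subunit of the BK potassium channel) was lower at 46.8 against 194 CPM. Of 30 vasoactive receptor genes 14 reached the floor, with 5 higher and 1 lower. Ednra (endothelin receptor A) stood at 130.02 CPM (90.9 to 209) against 18.7 CPM (8.47 to 43.2), Agtr1a (angiotensin II receptor) at 57.9 against 2.09 CPM and Adra2a (alpha-2A adrenoceptor) at 69.0 against 0.992 CPM. Ednrb and Ptgir were the other two higher, and Npr1 (the receptor of atrial natriuretic peptide) was lower at 35.7 against 155 CPM. Of 14 cyclic nucleotide genes 11 reached the floor, and Gucy1a2, a subunit of the nitric oxide receptor, was called at 60.3 against 7.55 CPM. Of 17 RGS genes 8 reached the floor, and Rgs16 was called at 241 CPM (81.6 to 498) against 4.07 CPM (0.438 to 9.15).

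Among growth factor signals, Angpt1 (the Tie2 ligand angiopoietin-1) stood at 105 CPM (59.1 to 245) against 13.1 CPM (7.35 to 20.5), and the co-receptors Nrp1 and Nrp2 at 377 against 65.2 and 61.0 against 6.17 CPM. These were the 3 called of 14 genes of VEGF and angiopoietin signalling, of which 9 reached the floor. Of the 8 PDGF genes, 6 of them at the floor, Pdgfrb was higher and Cspg4, which counts toward the rule, lower at 101 against 449 CPM. None of the 14 Notch genes, 9 of them at the floor, was called. Notch3, itself a splitting gene, stood at 750.0 against 189 CPM, a ratio of 3.94, and Jag1 at 122 against 51.3 CPM. Of 33 TGF-beta and BMP genes 27 reached the floor. Id4 (an inhibitor of basic helix-loop-helix factors) was the 1 called higher, at 704 against 77.0 CPM. Ltbp1, which tethers latent TGF-beta to the matrix, was lower at 114 against 585 CPM, and Ltbp2 at 3.96 against 32.7 CPM.

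The list of chemokines and inflammatory mediators had the most calls, 7 higher and 1 lower of 18 that reached the floor (23 genes, median ratio 4.66). Cxcl12 stood at 940.4, 742, 613, 911, 1021 and 1306 CPM with 4 or 5 markers, against between 27.0 and 75.3 CPM with 1 to 3. Every library of the first part lay above every library of the second. Ccl11 stood at 279.9 against 5.60 CPM, Cxcl1 at 500.3 against 28.4 CPM, Il6 at 132 against 8.54 CPM and Il34 (a ligand of the Csf1 receptor) at 107 against 3.76 CPM. Ccl19 and Icam1 (an adhesion molecule) were also higher, and Ptgis, the prostacyclin synthase, lower at 247 against 1142 CPM. In the coagulation and complement list Procr (protein C receptor) stood at 184 against 7.05 CPM, C1s1 at 572 against 97.7 CPM and Adamts4 at 172 against 20.5 CPM, with Vtn, a splitting gene, making 4 higher of the 20 of 22 that reached the floor.

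Contractile genes and integrins were called in the lower direction only, and matrix genes in both. Of 20 contractile genes 2 were called lower, Smtn (smoothelin, 163 against 665 CPM) and Pln (14.3 against 71.5 CPM), and the median ratio was 0.640. Acta2 stood at 11894 CPM (libraries 9695 to 15286) against 19826 CPM (18484 to 23000.3), with no overlap, while Actg2 (638 against 306 CPM) ran the other way. Of 16 integrins 11 reached the floor, and Itga8 (274 against 1355 CPM), Itga5 and Itga3 were lower, as was Npnt, the Itga8 ligand nephronectin (181 against 762 CPM). Among 25 basement membrane genes, of which 21 reached the floor, Col15a1 was lower (12.7 against 109 CPM) and Lamb1 higher (79.3 against 2.41 CPM). Among 26 matrix genes, all at the floor, Col5a3 was higher (82.5 against 1.77 CPM), while Eln (elastin, 496 against 1460 CPM) stayed under the ratio. Of 28 transcription factors 17 reached the floor, and Prrx1 (691 against 141 CPM), Ebf2 and Nr2f1 were higher. Of 39 Hox genes 13 reached the floor and 1 was called, Hoxc8. With 3.56% of all genes called higher, a single higher call in a list of this size, as for the Hox, matrix, basement membrane, RGS, cyclic nucleotide and TGF-beta lists, is no result about the list. None of the 20 immediate early genes, which can respond to tissue dissociation, was called, with a median ratio of 1.30.

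Many of the genes higher with 4 or 5 markers were as abundant in other cell types. Of 253 such genes without the given markers, 65 had a level in gated fibroblasts at or above that in the 136 cells, 58 in endothelial cells and 42 in leukocytes. Cxcl12 stood at 823 CPM and Ccl11 at 277 CPM in fibroblasts, close to the values above, Steap4 at 182 CPM and Prrx1 at 530.2 CPM. The fibroblast marker sum was 1626 CPM in the 136 cells against 908 CPM with 1 to 3 markers, and Dcn, which fibroblasts held at 18835 CPM, stood at 959 against 382 CPM. The endothelial sum was 2321 against 587 CPM with Pecam1 and Cdh5 at 0 by the rule, and Fabp4, a lipid carrier that capillary endothelium holds in quantity, made up 2225 against 538 CPM of it. The part of RNA from such cells in these values was not tested. Genes under 10 CPM in both fibroblasts and endothelial cells included the pericyte genes Colec11 (9.01 and 3.66 CPM) and Cox4i2 (3.92 and 1.72 CPM) and the channels Kcnk3 (1.497 and 1.44 CPM) and Ano1 (7.05 and 3.26 CPM). In Pln-positive smooth muscle 8 of the 253 were at or above their level in the 136 cells, Cox4i2 and Adamts4 among them, and 171 were lower there by at least 4 times (2 CPM added). Striated muscle markers, too, summed to 331 CPM in the 136 cells (libraries 125 to 565) against 82.6 CPM (28.6 to 200.2) with 1 to 3 markers, and their part was not tested.

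A total of 31 of the 253 genes stood at least 4 times above all 5 of elastic-type smooth muscle, Pln-positive smooth muscle, fibroblasts, endothelial cells and leukocytes (2 CPM added). Colec11, Id4, Angpt1 and Agtr1a were those on the lists, and others were H2-M9 (a class I-like gene of the major histocompatibility complex, 174 CPM against at most 2.04 CPM in these classes), Fst (775 CPM against at most 85.0), Sdc1 (the proteoglycan syndecan-1, 571 against at most 56.3) and Dlk1 (a Notch-like membrane protein, 92.0 against at most 4.33). Fst lay between 375 and 1642 CPM over libraries, and Dlk1 between 3.74 and 248 CPM, so Dlk1 rested on few cells (13.97% with a UMI). All 253 genes had been chosen as higher than in the other selected cells. The selected cells as a whole stood apart from elastic-type smooth muscle in few genes. The ratio to that class was thus largely set beforehand, and 221 of the 253 reached it. The ratios use pooled values and no share over all tested genes is given, so the count of 31 is a description.

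**Figure D5:**
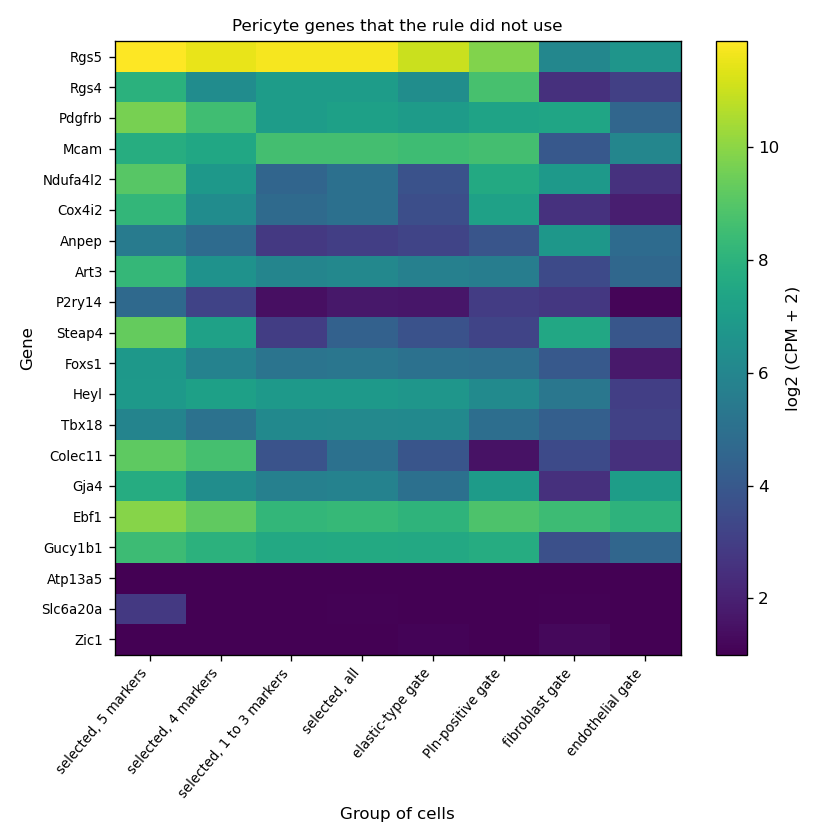
Levels, as log2 of CPM with 2 added (colour), of the 20 pericyte genes that the rule did not use (rows) in parts of the selected cells and in gated classes (columns). The column of all selected cells resembles elastic-type smooth muscle, while cells with 5 markers hold more Pdgfrb, Ndufa4l2, Cox4i2, Steap4 and Colec11.

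Cells low in Myh11 formed another small part. Of the 58 selected cells under 5 Myh11 UMIs, 30 held 4 or 5 given markers and 28 held 1 to 3. In the first the medians per cell were 24 Rgs5, 33 Fabp4 and 1 Dcn UMI at a median depth of 4566 UMIs. In the second they were 1 Rgs5, 1 Fabp4 and 35 Dcn UMIs at a depth of 7552.5 UMIs. Of the 28 cells, 14 held at least 20 Dcn UMIs although Pdgfra was 0 by the rule. Endothelial markers summed to 4061 CPM in the 58 cells against 620 CPM in the 2287 others, and the part of RNA from other cells was not tested. With the floor at 50 CPM and the ratio at 3, 205 of 4134 genes (4.96%) were higher in the 2287 other cells and 411 (9.94%) lower. These calls are on pooled values alone, since no library held 20 of the low cells. Of the contractile genes 19 of 20 were higher in cells with at least 5 Myh11 UMIs, Myh11 itself by the split, and Acta2 stood at 19707 against 1629 CPM. Dcn stood at 305 CPM in these cells and 8654 CPM in those under 5 Myh11 UMIs, and Steap4 at 11.6 against 586 CPM. The given markers summed to 501 against 2365 CPM.

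Libraries differed in what the selected cells held. Over 9599 genes with at least 20 UMIs in each library the highest library exceeded the lowest by a median ratio of 1.41, and 149 genes reached 4. The widest were Igkc (immunoglobulin kappa, 203-fold, with 932 CPM in library 5 and 4.597 in library 6), Actc1 (26.2-fold), Retnla (21.4-fold), Gm26870 (18.7-fold), Vtn (14.7-fold) and H2-Eb1 (14.05-fold). Igkc and H2-Eb1, genes of B cells and antigen presenting cells, were both highest in library 5. There 11.3% of filtered barcodes and 6.20% of the selected cells were called doublets. The part of doublets or of free RNA in these 2 genes was not tested. Vtn was highest in library 4, which also had the largest share of cells with 4 or 5 markers. Vtn is itself one of the counted markers, so this match is partly set by construction and supports nothing. Men1, mt-Nd2 and Stx7 varied least, at 1.04-fold each. Best3 gave 3 UMIs in the selected cells (0.102 CPM, 0.0210 to 0.297) and 3 in elastic-type smooth muscle (0.125 CPM, 0.0258 to 0.366), too few to compare.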

How the data were processed

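The deposited values are UMI counts, whole numbers in 1 matrix of 60871 barcodes by 55450 genes, written by Cell Ranger 6.1.2 per the file headers. Per the submitters' processing notes, bcl2fastq 5.01, Cell Ranger 3.1.0, Seurat 3.1.1 and GRCm38 were used. No map from cells to samples was used, so the planned genotype comparison was not made, and libraries are given singly or as a range.

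Counts were summed per class and library with Python 3.11.15, numpy 2.4.6 and scipy 1.17.1. The members, marker lists and gates were chosen with earlier results of these data known. Doublets were called by Scrublet in scanpy 1.11.5 and kept. Fibroblasts were gated on at least 2 Pdgfra UMIs, endothelial cells on at least 3 of Pecam1 and Cdh5 and leukocytes on at least 2 of Ptprc, each with Myh11 under 5 and the sum under 5. Intervals are exact 95% Poisson (CPM) and Clopper-Pearson (shares) intervals.

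The calls are rules of size with no error rate. The code that applies them was run on simulated data with known changes. Named genes are the rule genes, the pericyte list, and called or abundant genes of the other lists; genes of the split by given markers and others were chosen after their values were seen. Library totals are given in the report as a range. Free RNA was not removed.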

Additional observations from a re-analysis of the deposited data

How the results depend on the processing

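The number of selected cells was 2345 and changed to 1377 with a sum of at least 8, to 5391 with no condition on Notch3 and to 730 with Cspg4 left out of the sum. That last setting, and the alternatives for the split by given markers, were chosen after seeing the data. The share with at least 5 Myh11 UMIs was 93.4% without Cspg4 and 94.1% without the Notch3 condition. Genes higher than elastic-type smooth muscle numbered 4, and 1 without the Notch3 condition, 25 at a ratio of 2, 2 at a ratio of 8 and 18 without Cspg4. Genes lower numbered 2, and 4 with a sum of at least 3, 1 with at least 1000 genes, 0 without the Notch3 condition, 19 at a ratio of 2, 0 at a ratio of 8, 0 between 4000 and 16000 UMIs, 0 with at least 10 Myh11 UMIs and 5 with mean CPM over libraries. Leaving out 1 library at a time gave 2 to 5 higher and 0 to 5 lower genes. Against Pln-positive smooth muscle the counts were 40 higher and 78 lower, and 265 and 355 at a ratio of 2, 6 and 6 at a ratio of 8, 78 and 118 without Cspg4, and 143 lower without the Notch3 condition. Genes higher than all 4 comparators numbered 0, and 4 without Cspg4. Genes higher with 4 or 5 given markers numbered 256, and 545 at a ratio of 2 and 100 at a ratio of 8. Genes lower numbered 73, and 304 at a ratio of 2, 2 at a ratio of 8, 142 between 4000 and 16000 UMIs and 127 without Cspg4. Without Cspg4, 1 of the 18 genes higher than elastic-type smooth muscle and 216 of the 254 higher with 4 or 5 markers were shared with those reported. The cause of these shifts was not tested, apart from the ratio, which sets the count by construction. The depth of single cells limits every count of cells with a UMI.

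No paired analysis was possible because no cell is tied to a labelled sample, and the planned edgeR and DESeq2 fits were not run.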
